A study of Rattus norvegicus with 2 samples.

Results

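Autophagy and lysosome regulators were examined as a set of 44 genes chosen by symbol from the pathway's known parts: cargo receptors, the ATG8 family, initiation complexes, lipid supply, ATG8 conjugation, MiT/TFE transcription factors and lysosomal proteins. By the gene name in the array files, 43 of the 44 were found, and all 43 were well above background on both arrays. The arrays carried 27103 gene names, of which 13019 were measured on both. The cells were IEC6, a non-transformed epithelial line derived from rat small intestine. One dish culture received water for 60 min and the other received Na2S3, sodium trisulfide, a polysulfide salt, for 60 min. The dose is 100 µM in the sample's own label but 100 mM in the protocol text, and the sources used here do not settle which is right. Treatment was in DMEM with 0.1% FCS. RNA of each culture was hybridised to 1 Agilent array with 1 colour. With 1 array per group no test across arrays was possible, so "higher" and "lower" below describe these 2 arrays and not the treatment in general.

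Autophagy encloses cytoplasm in a double membrane, the autophagosome, and delivers it to the lysosome for breakdown. The ULK kinase complex starts the process, the VPS34 lipid kinase complex marks the growing membrane, and lipid carriers feed it. A ubiquitin-like conjugation system then attaches ATG8 proteins to the membrane, where cargo receptors such as p62 dock. MiT/TFE factors bind E-box motifs in promoters of lysosomal and autophagy genes, and in intestinal epithelium the pathway is known for its part in secretory cell function and defence against bacteria.

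Signals were divided by the 75th percentile of the non-control probes on the same array, and such values are called scaled signals here. A ratio is the Na2S3 array over the water array on the log2 scale, read from a gene's brightest probe. Its spot error is the error expected from repeat spots of similar brightness, which holds no spread between cultures. The median spot error of the members was 0.082, with a range of 0.020 to 0.35. Readings also varied with the probe: among 3214 genes with several measured probes, the SD between probes of one gene was 0.24. That SD includes the spot error of each probe, dim ones among them, and the part of probe choice was not separated.

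No member reached a 1.5-fold difference in either direction. Among all 13019 measured genes, 2.95% lay 1.5-fold or more above and 3.42% lay 1.5-fold or more below on the Na2S3 array. At 2-fold the count of members was again 0, beside 0.945% of all genes higher and 0.614% lower. The 43 ratios ran from -0.52 to 0.48 with a median of 0.016, and the median of all genes was -0.038. Of the members, 23 (53.5%) had a ratio above 0, beside 43.4% of all genes. Their SD was 0.19, against 0.34 over all genes. The SD was not compared among genes of similar signal, and 21 members fell in the brightest bin of water signal defined below. Of the members, 12 lay above the upper quartile of all genes and 7 below the lower one, 44.2% together, so most were spread much like other genes. At the all-gene shares above, few of 43 genes would pass 1.5-fold, so a count of 0 does not set the members apart.

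**Figure D1:**
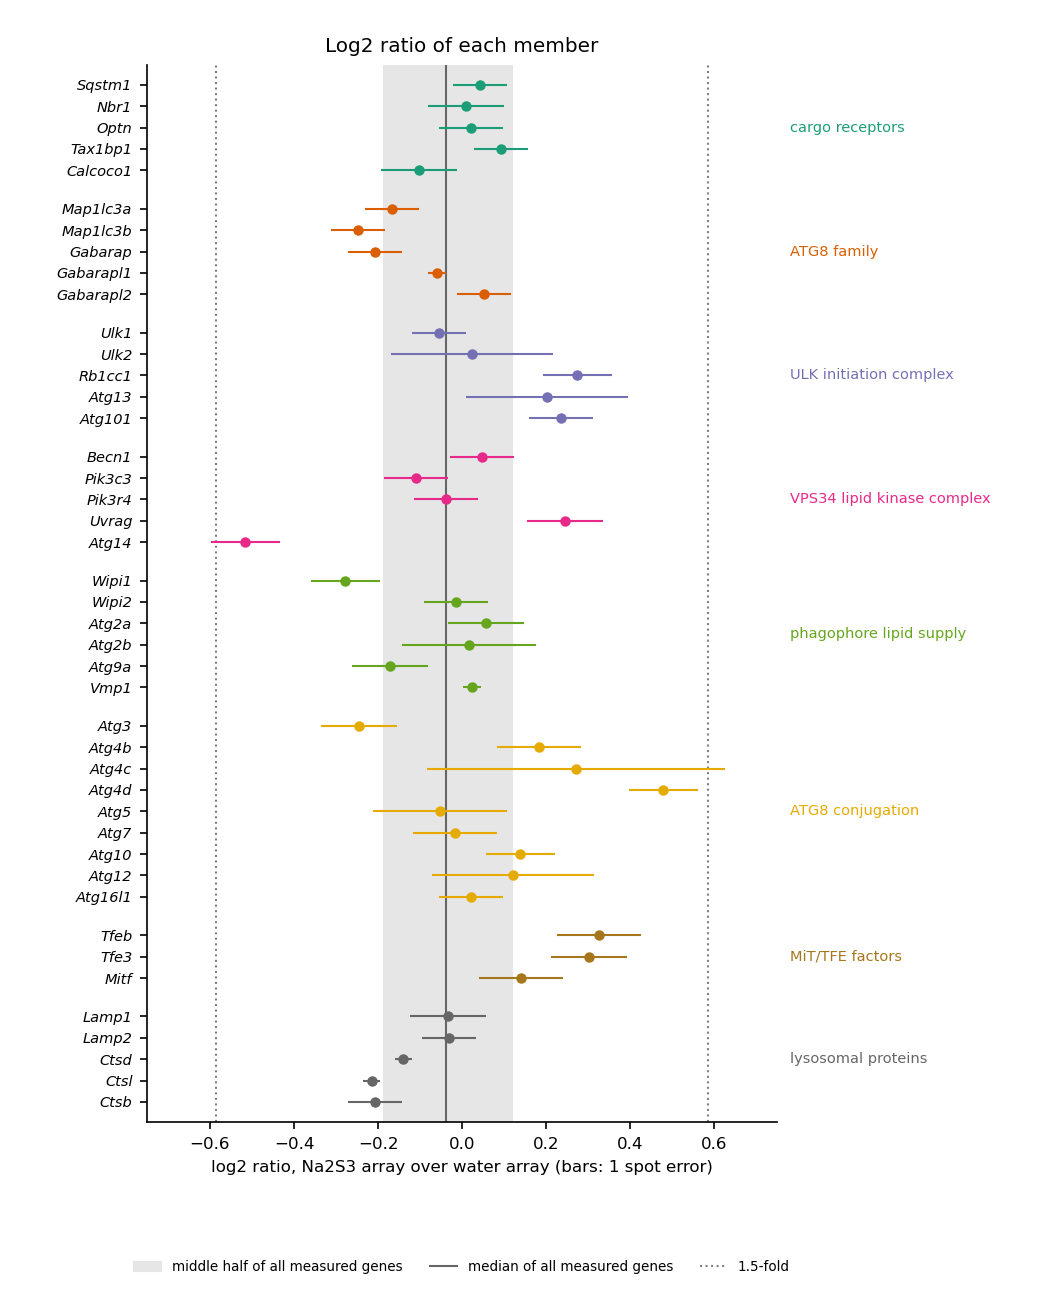
Log2 ratio of each of the 43 members, Na2S3 array over water array, grouped by role; bars are 1 spot error, the grey band is the interquartile range of all measured genes and dotted lines mark 1.5-fold. Every point lies inside the dotted lines, Atg14 (-0.52) at the low end and Atg4d (0.48) at the high end.

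Cargo receptors, which tie ubiquitinated or other cargo to the forming membrane, differed little between the arrays under the reported scaling. Sqstm1, which encodes p62, had a scaled signal of 65.4 with water and 67.4 with Na2S3, a ratio of 0.042 with a spot error of 0.064. Its other probes gave 0.055 and -0.042, so the 3 probes fell on both sides of 0. Its ratio depended on the scaling, at 0.19 under loess on signal, 0.20 under quantile normalization and in the authors' deposited value table, and 0.25 with no scaling. Tax1bp1, a receptor for ubiquitinated cargo, went from 14.8 to 15.8 (ratio 0.093, spot error 0.064). Nbr1, a receptor related to p62, had 13.3 and 13.4 (ratio 0.010). Optn, which encodes optineurin, a receptor for damaged mitochondria and bacteria, had 2.72 and 2.76 (ratio 0.021), and its 3 probes ran from 0.021 to 0.19. Calcoco1, an ER-phagy receptor, was the member of the group with a ratio below 0, at 15.4 and 14.4 (-0.10, spot error 0.091), and its other probe gave 0.089. The median of the 5 receptors was 0.021, or 0.059 above that of all genes.

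The ATG8 family, the small proteins that are joined to lipid and coat the autophagosome, lay lower. Map1lc3b, which encodes LC3B, had a scaled signal of 87.1 with water and 73.4 with Na2S3, a ratio of -0.25 with a spot error of 0.064. All 5 of its probes were below 0, from -0.29 to -0.078. One of these was spotted 10 times, and its spots ran from 38.6 to 44.7 with water and from 32.4 to 37.9 with Na2S3. These ranges did not overlap, but the gap depended on the scaling. Before scaling the probe's ratio was -0.0079, where the median of all genes was 0.17. The Map1lc3b ratio was -0.089 under loess on signal and under quantile normalization, and -0.039 with no scaling, where 2 of the 5 probes were above 0.

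Gabarap, of the GABARAP branch of the family, had 73.2 and 63.4 (ratio -0.21). Map1lc3a, which encodes LC3A, had 42.5 and 37.9 (-0.17). Both were smaller under quantile normalization, at -0.033 for Gabarap and -0.065 for Map1lc3a, and with no scaling Map1lc3a turned to 0.041 and Gabarap to 0.00046. Gabarapl1 was spotted 10 times and had 81.4 and 78.2 (-0.058, spot error 0.021), with overlapping spot ranges of 76.4 to 96.3 with water and 73.7 to 80.3 with Na2S3. Its ratio turned to 0.10 under loess on signal and 0.11 under quantile normalization. Gabarapl2, also known as GATE-16, was the member of the family above 0, at 27.96 and 28.97 (0.052), and its other probe gave -0.031. The family's median was -0.17, or -0.13 relative to all genes. Relative to all genes it was below 0 under each of the 11 processing settings, at -0.13 to -0.040. Several of these could not differ, since settings that shift every ratio alike, such as no scaling, leave the value at -0.13. Quantile normalization and the deposited table gave nearly the same value, at -0.040 and -0.041. With no scaling between arrays the family's own median turned to 0.041, where that of all genes was 0.17.

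**Figure D2:**
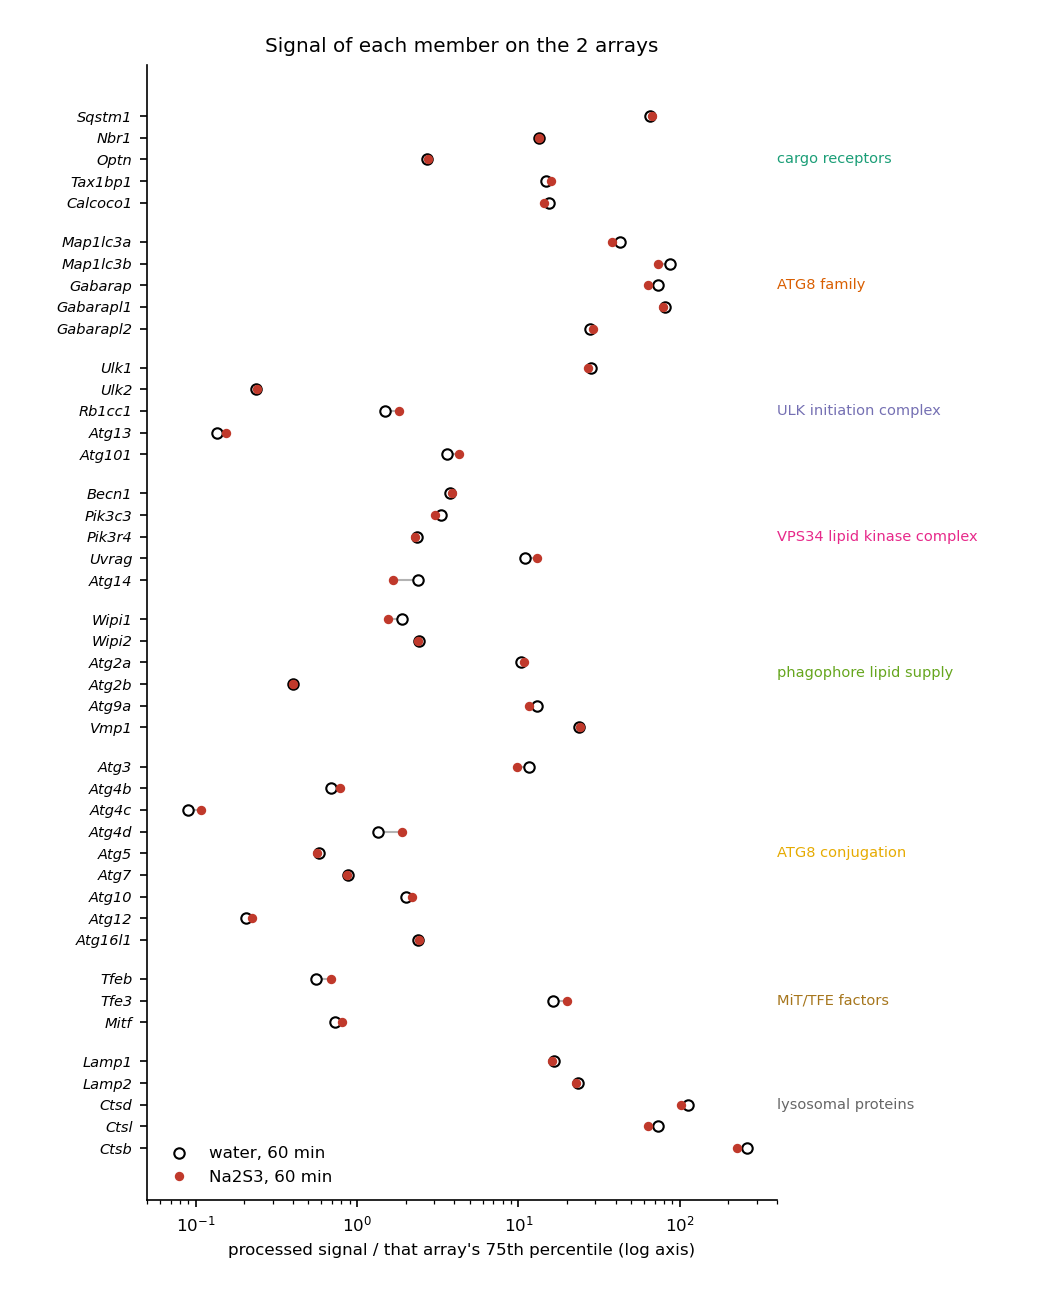
Scaled signal of each member on the water array (open) and the Na2S3 array (red), on a log axis, with 1 array per group. The paired points lie close together for most members, and Map1lc3b (87.1 and 73.4) and Atg14 (2.37 and 1.66) are among those with visible gaps.

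Initiation factors fell on both sides of 0. In the ULK complex, Rb1cc1, the scaffold FIP200, had 1.498 and 1.812, a ratio of 0.27 with a spot error of 0.082. A second Rb1cc1 probe gave the opposite sign, at 1.27 and 1.16 (-0.13). Atg101, a subunit that steadies the complex, had 3.64 and 4.28 (0.24). Atg13, the adaptor of the kinase, had 0.135 and 0.155 (0.20, spot error 0.19), and this ratio dropped to 0.050 with normexp background correction. At their brightest probes the kinases themselves differed less, with Ulk1 at 28.1 and 27.1 (-0.055) and Ulk2 at 0.236 and 0.240 (0.024). A dimmer second Ulk2 probe gave -0.25 with a spot error of 0.35. The complex's median was 0.20, or 0.24 above all genes. It was 0.090 above with normexp correction and 0.11 above when a gene's probes were summarised by their median.

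The VPS34 complex, which makes the lipid PI3P on the young membrane, held the lowest member of the set. Atg14, the subunit that directs the complex to autophagy, had a scaled signal of 2.37 with water and 1.66 with Na2S3. Its ratio was -0.52 with a spot error of 0.082, or 1.43-fold lower, at percentile 4.58 of all measured genes. Over the settings it stayed below 0, at -0.45 with normexp correction and -0.31 with no scaling. A single spot of 1 probe read it on each array. Uvrag, the subunit that replaces Atg14 in the endosomal form of the complex, was higher, at 10.95 and 12.97 (0.24, spot error 0.091). A second Uvrag probe of dim signal, 0.161 and 0.229, gave 0.50 with a spot error of 0.19.

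The other VPS34 members stayed near 0. Becn1, which encodes the shared subunit Beclin 1, had 3.75 and 3.88 (0.047). The catalytic subunit Pik3c3 had 3.30 and 3.06 (-0.11), and the regulatory subunit Pik3r4 had 2.35 and 2.29 (-0.038). The median of the 5 was -0.038, at that of all genes.

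**Figure D3:**
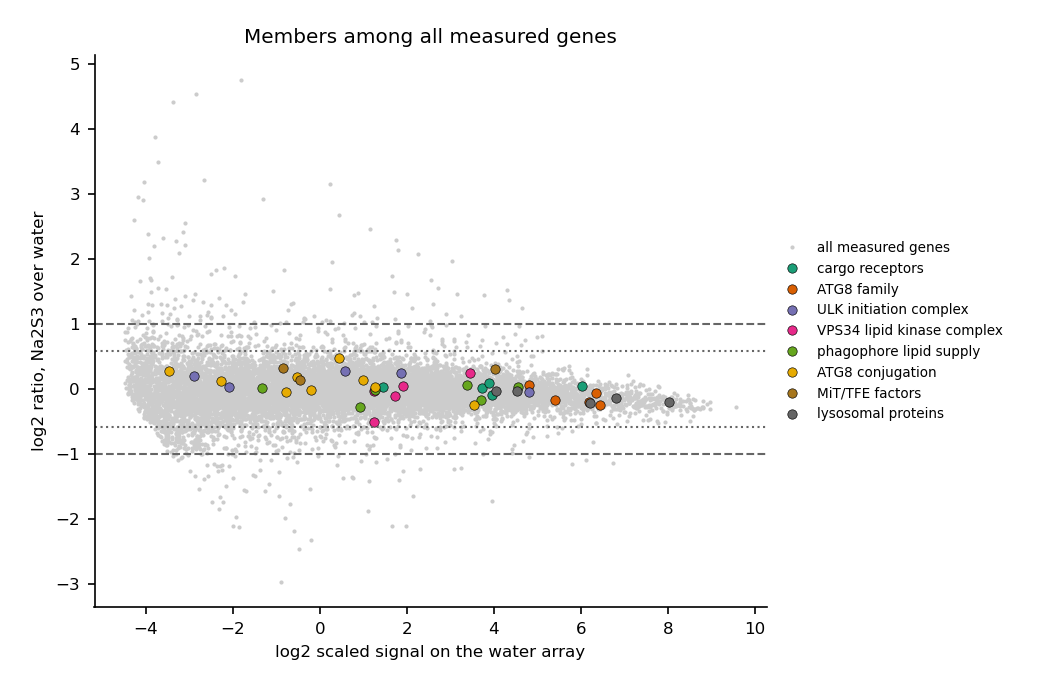
Log2 ratio against log2 scaled signal on the water array for all 13019 measured genes (grey) and the 43 members (coloured by role); dotted lines mark 1.5-fold and dashed lines 2-fold. The members spread over most of the range of signal and none passes the dotted lines.

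Set beside each other relative to all genes, the medians were 0.059 for the cargo receptors, -0.13 for the ATG8 family, 0.24 for the ULK complex and -0.00068 for the VPS34 complex. The groups overlapped member by member: Gabarapl2 (0.052) lay above Sqstm1 (0.042), and Ulk1 (-0.055) lay among the ATG8 ratios. They also differed in brightness, and the members' median ratios were lower in the brighter bins. With all measured genes cut into 4 equal bins of water signal, members had medians of 0.16 in the dimmest bin (4 genes), 0.16 in the next (8 genes), 0.0027 in the one above (10 genes) and -0.055 in the brightest (21 genes). All genes in those bins had -0.050, -0.0024, -0.0060 and -0.077, in the same order. The medians of all genes did not fall steadily with signal. Under loess on signal the ATG8 family lay at -0.057 and the ULK complex at 0.24 relative to all genes. The part of brightness in the group medians was not tested.

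Members that supply lipid to the growing membrane had a median of 0.00027. Wipi1, a PI3P-binding scaffold, had 1.90 and 1.57 (-0.28, spot error 0.082), and its relative Wipi2 had 2.42 and 2.39 (-0.015). Atg9a, a lipid scramblase carried on vesicles, had 13.1 and 11.6 (-0.17), and a probe overlapping the first gave -0.14. The lipid transfer proteins Atg2a (10.4 and 10.8, 0.056) and Atg2b (0.399 and 0.404, 0.016) lay close to 0. Vmp1, an ER scramblase, was read by 10 spots at 23.7 and 24.1 (0.024, spot error 0.020), while its other probes gave 0.28 and -0.17.

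The conjugation system included the highest member. Atg4d, a protease of the ATG4 family that trims ATG8 proteins or frees them from lipid, had 1.35 with water and 1.89 with Na2S3. Its ratio was 0.48 with a spot error of 0.082, or 1.39-fold higher, at percentile 95.6 of all measured genes. It came from a single spot per array of 1 probe that the files place at no genome position. Its relatives Atg4b (0.694 and 0.787, 0.18) and Atg4c (0.0898 and 0.108, 0.27) were also above 0, but Atg4c had a spot error of 0.35 and fell to 0.011 with normexp correction. Atg4a is the member without a match. A probe named Atg4al1 in the files, whose accession now carries the symbol Atg4a in RefSeq, had 1.26 and 1.13 (-0.16).

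Of the enzymes that join ATG8 proteins to lipid, Atg3, the E2-like enzyme, was lowest at 11.7 and 9.85 (-0.24, spot error 0.091). The E1-like enzyme Atg7 had 0.874 and 0.864 (-0.017) and another probe at 0.23. Atg10, the E2-like enzyme for Atg12, had 2.003 and 2.205 (0.14), and Atg12 itself had 0.207 and 0.225 (0.12, spot error 0.19). Atg5 (0.584 and 0.563, -0.051) and Atg16l1 (2.40 and 2.44, 0.021), which form the E3-like complex with Atg12, lay near 0. The group's median was 0.12, with 6 of 9 above 0.

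All 3 MiT/TFE factors, the transcription factors of lysosome biogenesis, were higher on the Na2S3 array at their brightest probe. Tfeb had 0.554 and 0.695 (0.33, spot error 0.10), which is 1.25-fold. Tfe3 had 16.3 and 20.1 (0.30, spot error 0.091), which is 1.23-fold, and a dim second probe with 0.0938 and 0.134 gave 0.51 with a spot error of 0.35. These put Tfeb at percentile 91.6 and Tfe3 at percentile 90.4 of all genes. Both were above 0 in each of the 11 settings, with Tfeb at 0.21 under normexp correction. Mitf was at 0.727 and 0.802 (0.14, spot error 0.10), and its second probe went the other way, at 0.332 and 0.220 (-0.60, spot error 0.19). Summarising Mitf by the median of its probes gave -0.23.

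The first 30 of the 60 bases of each MiT/TFE probe are shown because the direction of Mitf turns on which probe is read. The group's median relative to all genes changed little, at 0.34 by the brightest probe and 0.36 by the median over probes. Positions are those in the files, build rn4. The repeat in the second Mitf probe is in capitals.
Tfeb, chr9:8665358-8665417, minus strand: aggacaggggtgaggcagaagagaaataag
Tfe3, brighter probe, chrX:26768027-26768086, minus strand: ggtccgtaggtttgactaaaataataaatg
Tfe3, dimmer probe, chrX:26771221-26771280, minus strand: atcctgaaggcatctgtggattatatccgc
Mitf, brighter probe, chr4:132745559-132745618, plus strand: gagctctgtctgtctgtgacctcctttgaa
Mitf, dimmer probe, chr17:28735572-28735631, plus strand: AAGAAGAAGAAGAAGAAGAAGAAGAAGAAG
The files place the 2 Mitf probes on different chromosomes, and the shown part of the second is an AAG repeat throughout. Whether that probe reads Mitf alone was not tested.

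**Figure D4:**
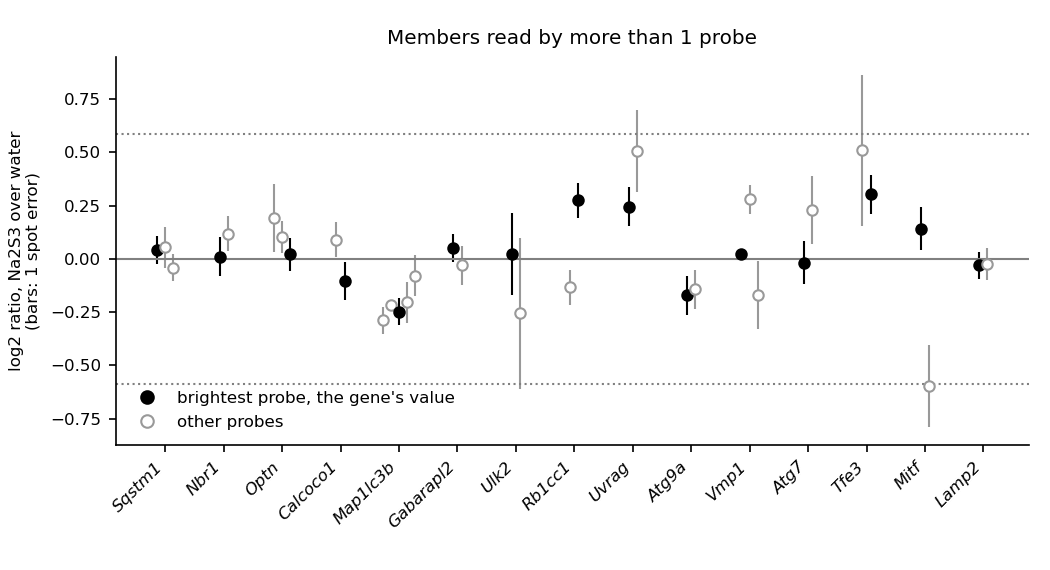
Log2 ratio of every measured probe of the 15 members with more than 1 measured probe; filled points are the brightest probe, which gives the gene's value, open points the others, bars 1 spot error and dotted lines 1.5-fold. In 8 of the 15 the probes fall on both sides of 0, and the second Mitf probe (-0.60) is the one below the lower dotted line.

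Lysosomal proteins were below 0 throughout, by small amounts. Ctsb, the protease cathepsin B, had 261 and 226 (-0.21, spot error 0.064). Ctsl, cathepsin L, had 73.6 and 63.4 (-0.21, spot error 0.020), and its 10 spots ran from 71.6 to 76.1 with water and from 60.5 to 65.8 with Na2S3, with no overlap. This gap too depended on the scaling. Before scaling the Ctsl ratio was -0.0071, where the median of all genes was 0.17, and quantile normalization gave -0.041. Ctsd, cathepsin D, had 112 and 102 (-0.14, spot error 0.020), with spots of 104 to 120 and 95.5 to 108 that overlapped. The membrane proteins Lamp1 (16.6 and 16.2, -0.034) and Lamp2 (23.3 and 22.8, -0.030) differed by less than their spot errors.

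The direction of the lysosomal group depended on the scaling. Its median was -0.14, or -0.10 relative to all genes, and it turned to 0.035 under loess on signal, 0.037 under quantile normalization, 0.037 in the authors' deposited value table and 0.068 with no scaling. Ctsl alone of the 5 was below 0 in every setting. Over the whole set, 5 of 43 members were below 0 in every setting (Map1lc3b, Atg14, Wipi1, Atg3 and Ctsl), beside 21.8% of the 12246 genes with a value in every setting. Above 0 in every setting were 20 members, Sqstm1, Atg4d, Tfeb and Tfe3 among them, beside 36.4% of those genes. The setting with no scaling adds 0.21 to each ratio and put 38 members and 77.4% of all genes above 0, which favours the second count over the first.

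**Figure D5:**
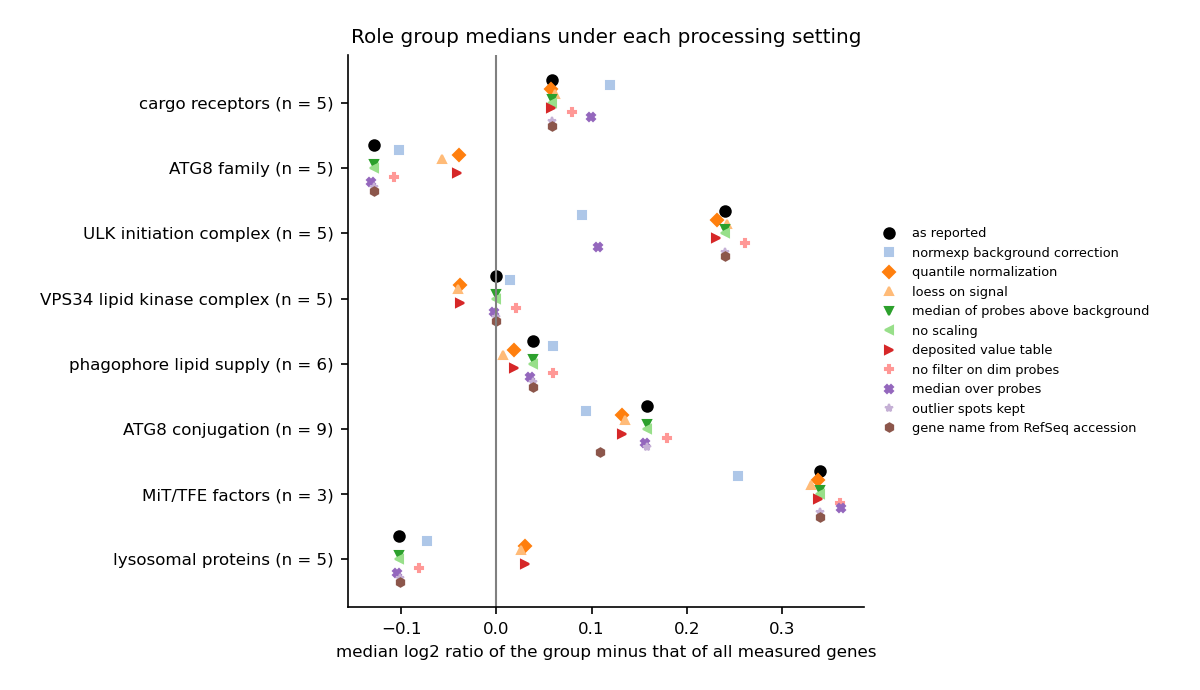
Median log2 ratio of each role group minus that of all measured genes, under the reported setting (black circles) and 10 alternatives. The lysosomal points lie on both sides of 0 (-0.10 as reported, 0.030 with quantile normalization), the ATG8 points all below 0 and the MiT/TFE points all above 0. Settings that shift every ratio alike, such as no scaling, repeat the reported value by construction.

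Promoters were searched for the E-box that MiT/TFE factors read, in windows from 250 bases before to 50 after each start in RefSeq, build GRCr8. Promoter entries were found for 39 of the 44 members and for 27457 symbols in all. On either strand, CACGTG stood in 5 of 39 (12.8%) and in 7.08% of all promoters. TCACGTG, which contains CACGTG, stood in 4 (10.3%) and in 3.58% of all. TGANNNNGC, the core of the antioxidant response element, stood in 22 (56.4%) and in 42.5% of all. TGATGNAA, the CHOP-ATF element, stood in 0 and in 4.16% of all. The promoters with CACGTG were those of Lamp1 with 5 matches, Ctsd and Atg3 with 2 each, and Atg14 and Atg5 with 1 each. These 5 genes had ratios of -0.034, -0.14, -0.24, -0.52 and -0.051, in that order. None of the 5 was above 0, beside 56.6% of all genes at or below 0. Lamp1 (spot error 0.091) and Atg5 (spot error 0.16) lay within 1 spot error of 0. The Atg14 match lies after the start. Lamp1 (0.038) and Ctsd (0.035) turned above 0 under loess on signal, and with no scaling Atg5 did too (0.16).

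Windows of 30 bases are shown for matches whose whole window lies before the start, to let spacing and flanks be compared. An Atg3 match 16 bases and a Ctsd match 10 bases before the start are left out, since their windows cross it. CACGTG is in capitals.
Lamp1, chr16:83075229-83075258, minus strand: atggctaagcatCACGTGgcctggagacca
Lamp1, chr16:83075213-83075242, minus strand: tggcctggagacCACGTGacgccgatcggc
Lamp1, chr16:83075196-83075225, minus strand: gacgccgatcggCACGTGacaccatcacga
Lamp1, chr16:83075111-83075140, minus strand: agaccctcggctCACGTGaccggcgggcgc
Lamp1, chr16:83075084-83075113, minus strand: cgcggcactgttCACGTGacaggcgctgcc
Ctsd, chr1:206968961-206968990, minus strand: tctttcttccccCACGTGactcgcatccag
Atg3, chr11:69159302-69159331, minus strand: gcctacttctgtCACGTGtcccgggagatt
Atg5, chr20:49380804-49380833, plus strand: cggggcgctggcCACGTGggcgggtgacgt
The Lamp1 matches began 183, 167, 150, 65 and 38 bases before the start, a row of E-boxes in 1 short stretch. A match is a string of letters and does not show binding.

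Other genes of the pathway were drawn from 7 lists by function. Of 121 such genes on the array, 115 were measured and their median was -0.043. Of these, 47 (40.9%) were above 0, beside 43.4% of all genes. At 1.5-fold, 1 of the 115 was higher and 2 were lower, beside 2.95% and 3.42% of all genes. The higher one was Ctns, the lysosomal cystine exporter, at 1.06. Its signal was only 20.6 units with water and 49.7 with Na2S3, its spot error 0.35, and its ratio 0.22 with normexp correction. The 2 that were at least 1.5-fold lower were Rragd and Tp53inp1. Rragd, a GTPase of the nutrient-sensing complex, was at -0.79 with a spot error of 0.35 and at -0.32 with normexp correction. Tp53inp1, a p53 target that takes part in autophagosome formation, was at -0.62, with 4 probes from -0.62 to -0.20.

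By list, the 16 V-ATPase subunits, which acidify the lysosome, had a median of -0.082, from Atp6v1e1 (-0.34) to Atp6v0b (0.25). The 27 measured lysosomal hydrolases of 30 had -0.025, and Psap, which encodes prosaposin, was lowest at -0.39. The 14 lysosomal membrane proteins had 0.023, and Laptm4a was lowest at -0.34. The 14 nutrient-sensing genes had -0.13, and Fnip2, a folliculin partner, was highest at 0.28. The 16 genes of the fusion machinery had 0.026, from Vps41 (-0.15) to Vps39 (0.26), both subunits of the HOPS tether. The 12 measured mitophagy and ER-phagy genes of 13 had -0.039, from Pink1 (-0.43), the kinase that marks damaged mitochondria, to Fundc1 (0.21), a mitophagy receptor. The 16 measured other autophagy factors of 18 had -0.084, and Tollip was highest at 0.35.

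Markers of the cell type were read to check the label. Of 12 intestinal epithelial markers, 7 were measured. The brightest with water were Krt8 (15891.5 units), Cdh1 (14702.5) and Cdx1 (2086.03). Epcam, Vil1, Cdx2, Lgr5 and Alpi were not well above background on either array. Of 10 fibroblast markers, 8 were measured, with Col3a1 (91981.1), S100a4 (79767.8) and Col1a1 (71686.6) the brightest. Pdgfra and Pdgfrb were not well above background on either array. Of 10 immune and endothelial markers, 5 were measured, and the brightest, Vwf (2484.78), lay above Cdx1. Col3a1, S100a4 and Col1a1 were each brighter than every measured epithelial marker, so these readings did not settle the label. The median ratios of the 3 lists were -0.062, -0.25 and -0.27, and their part in the members' ratios was not tested. About 49.5% of probes on the water array and 49.0% on the Na2S3 array were well above background, and 0 spots were saturated.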

How the data were processed

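Total RNA of 1 culture per group was labelled with Cy3 and hybridised to 1-colour Agilent arrays, per the labels' protocols. The deposited scanner files hold spot intensity on a linear scale from Feature Extraction 10.7.1.1, background-subtracted and detrended, per the file headers. The submitters' processing notes name Agilent Feature Extraction 9.5.1.1. A deposited value table holds intensity too. How it was normalized was not given in the sources used here. Coordinates of probes are those of rn4, as the files give them. Exon and UTR positions were not analysed here.

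The processed signal was taken to log2 and averaged over the spots of a probe without outlier-flagged spots (448 and 390). Scaling subtracted the 75th percentile of the 45598 non-control probes, 413 units on the water array and 478 on the other, a shift of 0.21. A probe was well above background when over 50% of its spots carried that flag. Each gene took the value of its brightest probe well above background on both arrays. Of 69 member probes, 64 were measured, and 38 members were read by 1 spot per array. Spot error came from 1957 probes with repeat spots in 9 signal bins. Averaging over spots, scaling and ratios were tested on simulated data with 1 probe per gene and the same noise at every signal. That test did not cover the background filter, the removal of outlier spots, the choice of probe or the binned spot error. Python 3.11.15 with numpy 2.4.6 and pandas 2.3.3 and R 4.3.3 with limma 3.58.1 (normexp, offset 50) were used.

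With 1 array per group there was no test, and precision is limited by the number of arrays. Members, lists and alternatives were chosen with earlier results of these data known. Every measured member is named. Of each other list the text names genes past 1.5-fold and otherwise the highest and lowest, and of marker lists up to 3 bright genes and the defining ones below background. Some genes that this rule selects are left out of the text.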

Additional observations from a re-analysis of the deposited data

How the results depend on the processing

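The 10 alternatives were normexp background correction, quantile normalization, loess on signal, scaling to the median of probes above background, no scaling, the deposited value table, no filter on dim probes, the median over a gene's probes, outlier spots kept, and gene names from RefSeq accessions. With no scaling, 1 member (Atg4d) was at least 1.5-fold higher, since that setting moved the median of all genes by 0.21. The share of all genes past 1.5-fold in that setting was not counted. Relative to all genes, the ATG8 family median moved to -0.040 with quantile normalization and -0.041 in the deposited table. The ULK complex moved to 0.090 with normexp correction and 0.11 with the median over probes, and the MiT/TFE factors moved to 0.25 with normexp correction. The lysosomal proteins moved to 0.030 with quantile normalization, 0.025 with loess on signal and 0.030 in the deposited table, which turned their direction. The causes were not tested. The other 121 group values stayed within the members' median spot error or within 1.5 times the count, as did 345 values of single genes, while 85 moved further. Part of both counts was fixed in advance, so they do not measure how stable the values are. Among single genes, the median over probes could change only the 15 members with several measured probes. Dropping the filter on dim probes and naming genes from RefSeq accessions left the ratio of every measured member as it was. No scaling and scaling to the median of probes above background shift every ratio alike, which cancels in medians relative to all genes. The dim members Atg4c, Atg13, Atg12 and Ulk2 are limited by spot errors of 0.19 to 0.35. No paired analysis was possible because each group has 1 array.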

Other observations

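Tsc1, a brake on mTORC1 at the lysosome, was read at -0.097 by its brightest probe and at 1.72 by its other probe. It was picked after its values were seen. A dim Atg10 probe that was not well above background on both arrays gave 1.47, beside 0.14 for the measured one.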
